A study of Mus musculus with 212 samples.

Results

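The deposited brain miRNA tables hold 881 small RNA features, and 86 of them carry no miRNA name. In place of a name, their row identifiers hold a prefix that marks a predicted small RNA, a chromosome and a running number, as in chr10_26214. These 86 features were taken as the unannotated features by that prefix alone, and the other 795 as the named miRNAs. One of the 86 rows joins 2 identifiers, chr14_37300 and chr14_37296. The tables give neither a sequence nor a position within the chromosome for an unannotated feature.

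Small RNA came from the right brain hemisphere of mice that had received no treatment. They belonged to the LXS recombinant inbred panel, inbred strains derived from crosses of the Inbred Long Sleep and Inbred Short Sleep strains, which were selected for a long and a short loss of the righting reflex after ethanol. Library names carry the tag HIGH for 8 of the strains used here, MED for 9, LOW for 10 and no tag for 32, and the sources used here give neither the meaning of the tags nor the age of the mice. A strain was given a tag where any of its libraries carried it, and LXS80 (MED) and LXS41 (LOW) also had libraries without a tag. Of 212 libraries described, 211 could be given a strain, and 196 belong to the 59 strains that have a column in the tables. Those strains had 2 to 7 libraries each, from 176 animals by the letters in the labels, spread over 5 sequencing batches of 12, 39, 46, 39 and 60 libraries. Each strain has a single value per feature that the authors made from its libraries, so no error can be given for a strain, and p-values measure only the spread between strain values. Among brain markers, miR-9-5p had a median normalized signal of 547428 (176311 to 736458 over strains) and miR-124-3p of 101952 (42495.5 to 135291). The pituitary marker miR-375-3p reached 116559 at its highest against a median of 6079. Of the choroid plexus and ciliated cell markers, miR-200a-3p ran from 356.8 to 56965.6. The others had narrower ranges: miR-204-5p from 11831.3 to 50444.2, miR-449a-5p from 45.2 to 252.9 and miR-211-5p from 4.37 to 30.2. Their part in the values below was not tested.

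MicroRNAs are short RNAs cut by Drosha and Dicer from hairpin transcripts, and they guide Argonaute proteins to partly matching messenger RNAs, mainly through the seed near their 5′ end. Sequencing pipelines predict further miRNAs from reads that pile up on a genomic hairpin and give them a provisional identifier until they are entered in a miRNA database. Closely related miRNAs, whose mature sequences differ by a base or less, share reads when a read fits both, so their values in a table need not be independent.

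The following mature sequences are those of named miRNAs whose values ran in parallel with unannotated features or with each other. They come from RefSeq (GRCm38.p6), and capitals mark the seed, bases 2 to 8. The strongest named partners of the abundant unannotated features chr2_6472, chr19_46276 and chr4_10452 were the following.
miR-690: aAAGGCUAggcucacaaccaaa
miR-3099-3p: uAGGCUAGagagagguugggga
miR-3473b: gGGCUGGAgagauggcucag
miR-1843b-5p: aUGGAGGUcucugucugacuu
miR-1843a-5p: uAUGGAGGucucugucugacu
The next 4 pairs of named miRNAs, which had near-identical values, are shown because several unannotated features formed such pairs too.
let-7a-1-3p: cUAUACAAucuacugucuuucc
let-7c-2-3p: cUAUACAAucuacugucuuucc
miR-103-3p: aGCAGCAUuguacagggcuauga
miR-107-3p: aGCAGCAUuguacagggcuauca
miR-101a-3p: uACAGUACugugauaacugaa
miR-101c: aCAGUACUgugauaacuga
miR-299a-3p: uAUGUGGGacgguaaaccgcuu
miR-299b-3p: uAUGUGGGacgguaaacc
In the first set each miRNA has a seed of its own. MiR-1843b-5p and miR-1843a-5p differ by 2 bases, 1 at each end, and do not share a seed. In the second, let-7a-1-3p and let-7c-2-3p have the same mature sequence although their genes lie apart, at chr13:48538188-48538209 on the minus strand and chr15:85706664-85706685 on the plus strand. MiR-103-3p and miR-107-3p differ by 1 base and share a seed.

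The first comparison asked how abundant the unannotated features were. They were low. Their mean normalized signal, a library-scaled quantity without a stated unit, had a median of 6.13 over the 86 unannotated features (1.63 to 704.5), against 102.7 over the 795 named miRNAs (1.75 to 2682330), a 16.8-fold higher median in the named miRNAs. A mean of at least 10 was reached by 28 unannotated features (32.6%) and 619 named miRNAs (77.9%), a mean of at least 100 by 4 and 400, and a mean of at least 1000 by 0 and 212. Together the unannotated features took between 0.0132% and 0.0246% of a strain's summed signal, with a median of 0.0163%. That percentage had a median of 0.0186% in HIGH strains, 0.0189% in MED strains, 0.0186% in LOW strains and 0.0155% in strains without a tag, and the groups overlapped. Strains without a tag had most of their libraries in batches 4 and 5 and tagged strains in batches 2 and 3, so tag and batch cannot be told apart there.

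**Figure D1:**
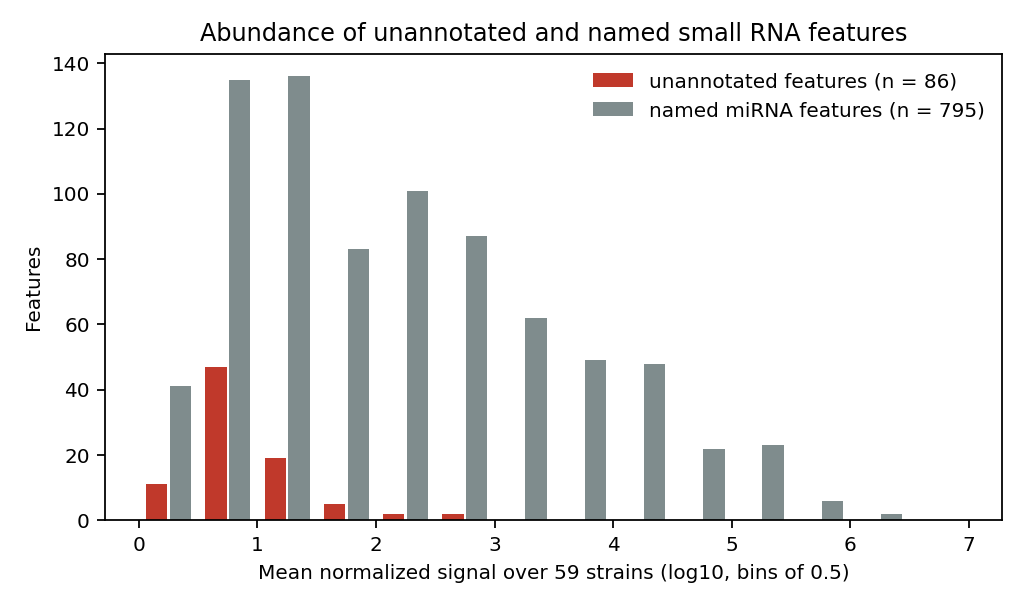
Number of unannotated features (red) and named miRNAs (grey) in bins of 0.5 log10 of the mean normalized signal over 59 strains. The largest group of unannotated features, 47, lies between 3.16 and 10, and no unannotated feature reaches 1000.

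The pair at the top held 51.7% of all unannotated signal. Feature chr5_13806 averaged 704.5, ranking 236 among all 881 features, with a lowest strain value of 397.0, a median of 709.8 and a highest of 1158. Feature chr4_10452 averaged 479.5 (316.1 to 708.7), at rank 270. Both were present in every strain within a narrow range: the SD over strains was 0.31 and 0.25 on the log2 scale, against a median of 0.47 over the unannotated features and 0.47 over the named miRNAs. The next were chr2_6472 with a mean of 117.8 (70.2 to 267.8), chr14_37101 with 117.4 (56.1 to 188.0), chr17_42531 with 91.0 (59.86 to 150.02) and chr19_46276 with 53.4 (21.6 to 131.0). The seventh, chr13_34921, averaged 43.9. Most unannotated features, 58, lay under 10, and the least abundant was chr4_9669 with 1.63, also the lowest mean of all 881 features.

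Variation over strains was set beside that of named miRNAs of like abundance. Between 3.16 and 10, the bin that held most unannotated features, the median SD over strains on the log2 scale was 0.47 for 47 unannotated features and 0.58 for 135 named miRNAs. Between 10 and 31.6 it was 0.36 for 19 unannotated features and 0.52 for 136 named miRNAs. The order was the other way in the next bins, with 0.47 for 5 unannotated features and 0.45 for 83 named miRNAs between 31.6 and 100, and 0.43 for 2 and 0.40 for 101 between 100 and 316. After removal of batch shares, that is of what a linear fit on each strain's share of libraries per batch accounts for, the medians of these 4 bins were 0.41 against 0.48, 0.30 against 0.44, 0.37 against 0.35 and 0.31 against 0.28. In the lowest bin and in the highest that held unannotated features, their median SD was again the lower. Between 1 and 3.16 it was 0.50 for 11 unannotated features and 0.64 for 41 named miRNAs. Between 316 and 1000 it was 0.28 for 2 and 0.44 for 87. After removal of batch shares these were 0.47 against 0.54 and 0.27 against 0.32. All of these medians are descriptions, with features as items and not as replicates.

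Identifiers placed unannotated features on 20 chromosomes. Chromosomes 4 and 8 each had 11, or 12.8% of the 86, where 4.52% and 3.77% of the 664 named miRNAs with 1 known chromosome lie. Each of these counts of 11 includes a pair of features with nearly the same values, described below. The 664 include none on chromosome 18, and 114 named miRNAs had no known chromosome. Chromosome 10 had 8 unannotated features and chromosome 2 had 7. Chromosome 12, which carries the large imprinted miRNA cluster of the Dlk1-Dio3 region, had 4 unannotated features (4.65%) against 17.2% of the named miRNAs, and the X chromosome had 2 (2.33%) against 10.7%. The unannotated features on chromosome 12 were all low, at means of 2.22 to 4.64, whereas 5 of the 11 on chromosome 4 and both on the X chromosome reached a mean of 10.

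The next question was which unannotated features were missing from some strains. The variance-stabilized table has a floor of 3.87 that 422 of its 51979 values share, and a strain at that floor carries no level for the feature. At least 1 strain was at the floor for 10 unannotated features and 48 named miRNAs, 6.58% of all features, with 128 and 294 values in all. Among features with a mean of 1 to 10, these were 9 of 58 unannotated features and 48 of 176 named miRNAs. In that range 3.62% of the values of unannotated features and 2.83% of those of named miRNAs were at the floor. Features at the floor in at least 20 strains numbered 4 unannotated and 6 named. The floor was reached in 33 strains by chr8_23508, in 32 by chr4_9669, in 29 by chr10_26328, in 24 by chr4_11381 and in 4 by chr10_26214. The other 5, which were chr12_34315, chr8_21891, chr15_40280, chr9_25779 and the joined chr14 row, were at the floor in 1 or 2 strains, and the remaining 76 unannotated features in none. The floor is no fixed cut of the normalized table: values up to 1.46 sat on it, and values down to 0.186 sat above it. A normalized value of exactly 0 stood in 2 unannotated features, 5 strains of chr4_9669 and 3 of chr10_26328, and in 3 named miRNAs.

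The strains at the floor overlapped in part between features. Of the 32 strains at the floor for chr4_9669 and the 29 for chr10_26328, 18 were shared, 56.3% of the first and 62.1% of the second. Over all 59 strains, 49.2% were at the floor for chr10_26328 and 54.2% for chr4_9669. For chr4_11381 and chr8_23508, with 24 and 33 strains, 11 were shared, 45.8% and 33.3%, where 55.9% of all strains were at the floor for chr8_23508 and 40.7% for chr4_11381. The sources used here do not give the depth behind each strain value, and its part in these counts was not tested.

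Several of these features took 2 separate levels over the strains. For each feature the strains were split into a low and a high level so that the split took the largest share of the sum of squares of log2(normalized + 1), with at least 5 strains in each level. A feature was called two-level where that share was at least 0.8. A normal distribution gives 0.637 and a uniform one 0.75. No test was made, since the split is chosen from the values. Of all 881 features, 6.92% were two-level: 6 of 86 unannotated features (6.98%) and 55 of 795 named miRNAs (6.92%). With a mean of at least 10, 2 of 28 unannotated features (7.14%) and 48 of 619 named miRNAs (7.75%) were, 7.73% in all. The count of named miRNAs depended on the scale: in the variance-stabilized table, 6 of 86 unannotated features (6.98%) and 26 of 795 named miRNAs (3.27%) were two-level, or 2 of 28 (7.14%) and 21 of 619 (3.39%) with a mean of at least 10.

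The shares differed once batch shares were removed. All 6 of the unannotated features stayed two-level in the residuals, and 4 of the 55 named miRNAs did. These were 6.98% of unannotated features and 0.503% of named miRNAs, and 1.14% of all 881. The 4 named miRNAs were miR-9769-3p, miR-7057-5p, miR-466q and miR-5121. Among features with a mean of 1 to 10, where most unannotated features lie, 4 of 58 unannotated features and 3 of 176 named miRNAs were two-level in residuals. With a mean of at least 10, they were 2 of 28 and 1 of 619, 0.464% of the features there.

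**Figure D2:**
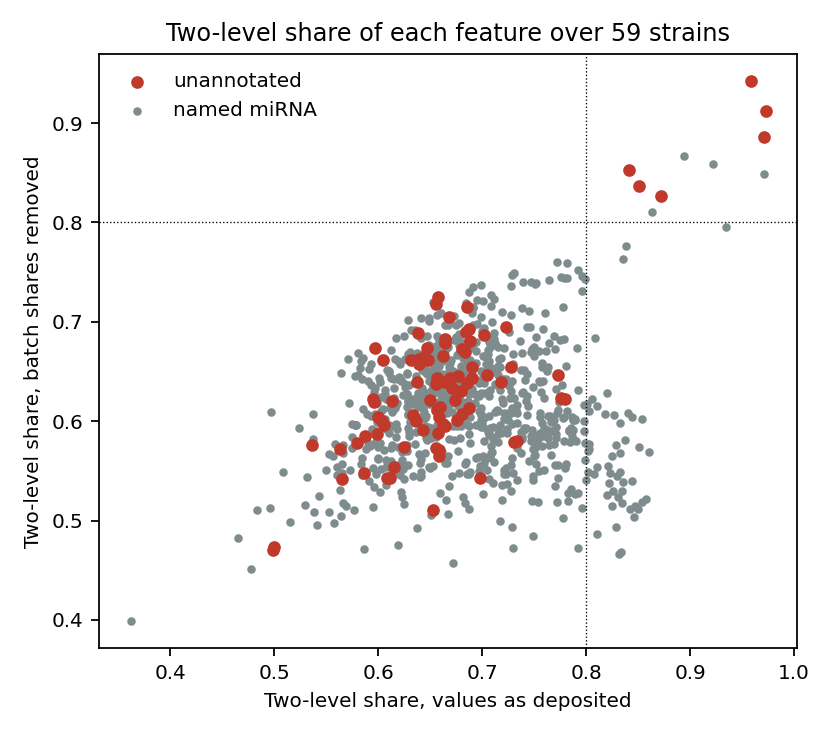
Two-level share of every feature over 59 strains with values as deposited (x axis) and with batch shares removed (y axis), unannotated features in red and named miRNAs in grey, dotted lines at 0.8. In the upper right corner stand 6 unannotated features and 4 named miRNAs, and 51 named miRNAs lie right of the vertical line but under the horizontal one.

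The clearest case was chr10_26214, with a share of 0.97. Its 34 high strains ran from 11.6 to 24.2 (median 17.3) and its 25 low strains from 0.104 to 1.43 (median 0.762). The gap between the levels was 2.37 on the log2 scale. Feature chr8_23508, also at 0.97, had 25 high strains at 4.42 to 12.6 (median 6.91) and 34 low strains at 0.00227 to 0.617 (median 0.0464), with a gap of 1.74 between the levels. Feature chr4_11381, at 0.96, had 34 high strains at 3.30 to 20.3 (median 11.8) and 25 low strains at 0.0103 to 0.510 (median 0.0831), with a gap of 1.51.

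The other 3 had gaps of 0.24 to 0.52. Feature chr4_9669, at 0.87, had 17 high strains (2.57 to 9.87) and 42 low strains (0 to 1.49). Feature chr10_26328, at 0.85, had 24 high strains (1.99 to 10.1) and 35 low strains (0 to 1.498), and its share was 0.77 with a pseudocount of 10. Feature chr9_24385, at 0.84, had 35 high strains (6.87 to 37.9) and 24 low strains (0.670 to 5.68). No strain was at the floor for it, though its lowest values lie within the range of normalized values found at the floor. These 6 were also the unannotated features with the largest SD over strains after removal of batch shares, 1.05 to 1.79 on the log2 scale.

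**Figure D3:**
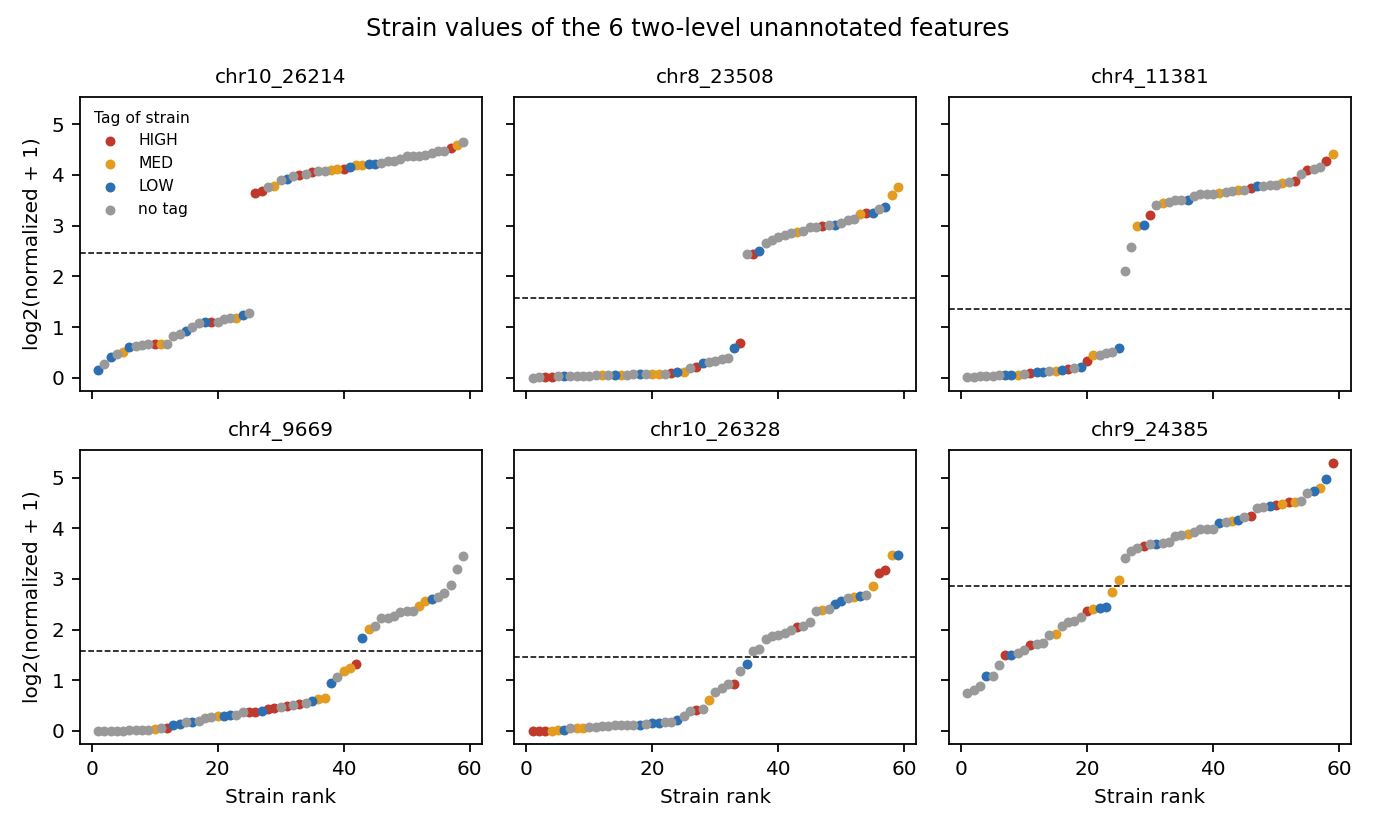
Strain values of the 6 two-level unannotated features, log2(normalized + 1) on the y axis against the rank of the strain on the x axis, each point 1 of 59 strains coloured by tag, with a dashed line between the levels. The upper 3 features have an empty gap of 1.51 to 2.37 between levels, and strains of every tag stand on both sides in those 3.

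Both levels occurred within single sequencing batches. Among the 8 strains with all libraries in batch 5, chr10_26214 was high in 6 and low in 2, chr8_23508 high in 2 and low in 6, and chr4_11381 high in 5 and low in 3. By tag, chr10_26214 was high in 6 of 8 HIGH strains, 6 of 9 MED, 4 of 10 LOW and 18 of 32 without a tag. Feature chr4_11381 was high in 5 of 8 HIGH, 6 of 9 MED, 3 of 10 LOW and 20 of 32 without a tag. Feature chr4_9669 was high in 0 of 8 HIGH, 3 of 9 MED, 2 of 10 LOW and 12 of 32 without a tag. Features chr8_23508 and chr10_26328 were each high in 3 of 8 HIGH, 4 of 9 MED and 4 of 10 LOW, and in 14 and 13 of 32 without a tag.

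Levels of different features were set side by side, with no test. Unrelated features also agree in part of the strains, and the agreement they would give was not worked out. Over the 15 pairs of the 6 features, the number of strains at the same level in both ran from 17 to 38 of 59, with a median of 27. The lowest count was that of chr10_26214 and chr10_26328, both on chromosome 10: 42 strains were high in one and low in the other, and 17 were at the same level. The highest counts, 38, were those of chr10_26214 with chr8_23508 and of chr4_9669 with chr10_26328. Feature chr10_26328 also stood beside a named miRNA, miR-6905-5p, which is low as well (mean 1.94, at the floor in 22 strains). Of the 29 and 22 strains at the floor, 19 were shared, 65.5% and 86.4%, where 37.3% of all strains were at the floor for miR-6905-5p and 49.2% for chr10_26328. The ratio of their values ran from 0 to 17.8, and where values lie at the floor it carries no level.

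Sequencing batch was tested next, as the technical factor that the labels give. An F test of the batch shares in limma, with Benjamini-Hochberg adjustment over all 647 features with a mean of at least 10, passed 20 of 28 unannotated features (71.4%) and 541 of 619 named miRNAs (87.4%), 86.7% of all features tested. The share of unannotated features that passed was below that background. Over all 881 features, 53 of 86 unannotated features passed (61.6%) and 670 of 795 named miRNAs (84.3%), 82.1% in all. Within bins of like abundance, 29 of 47 unannotated features and 102 of 135 named miRNAs passed between 3.16 and 10, 12 of 19 and 106 of 136 between 10 and 31.6, 5 of 5 and 74 of 83 between 31.6 and 100, and 2 of 2 and 90 of 101 between 100 and 316. Between 1 and 3.16, 4 of 11 unannotated features and 29 of 41 named miRNAs passed, and between 316 and 1000, 1 of 2 and 73 of 87. Batch shares took a median of 25.1% of the sum of squares of an unannotated feature and 39.03% of that of a named miRNA. At like abundance these medians lay closer in some bins only. Between 3.16 and 10 they were 23.6% for 47 unannotated features and 26.7% for 135 named miRNAs. Between 10 and 31.6 they were 26.4% for 19 and 33.99% for 136. The next bins had 31.0% for 5 and 39.9% for 83, and 49.0% for 2 and 45.8% for 101. They lay further apart between 1 and 3.16, at 11.8% for 11 and 24.6% for 41. Between 316 and 1000 they were 16.0% for 2 and 46.1% for 87.

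The smallest p was that of chr2_6472. The 3 strains with all libraries in batch 3 were at 137.4, 138.8 and 144.4, the pair in batch 1 at 70.2 and 76.8, and the 8 in batch 5 at 71.1 to 102.6 (median 79.9). The strains of batch 3 were above all of those. Its fitted levels ran from 6.10 in batch 1 to 7.29 in batch 2 (log2), a range of 1.19 (F = 17.6, adjusted p = 6.02e-09). Feature chr17_44350 had a fitted range of 1.28, highest in batch 2 and lowest in batch 4 (adjusted p = 1.64e-08). Feature chr8_22734 was lowest in batch 3, with a range of 0.94 (adjusted p = 1.26e-07). The near-identical chr4_10275 and chr4_11680 both had ranges of 0.87, highest in batch 2 and lowest in batch 4 (adjusted p = 9.18e-07 and 1.03e-06), and chr14_37101 one of 0.65 (adjusted p = 8.89e-06). Of the 20 called unannotated features, 12 had their highest fitted level in batch 2, as had 168 of the 541 called named miRNAs. The 12 include the near-copies chr4_10275 and chr4_11680. No strain had more than 75% of its libraries in batch 2, so the fitted levels of that batch are extrapolated. For chr2_6472, strains with at least 60% of their libraries in batch 2 ran from 83.7 (LXS5) to 186.4 (LXS99). Strains without a tag had no library in batch 2, so batch differences and differences between tagged and untagged strains cannot be told apart. For chr2_6472 the median was 148.9 in HIGH, 148.2 in MED and 138.3 in LOW strains, and 88.6 in strains without a tag.

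**Figure D4:**
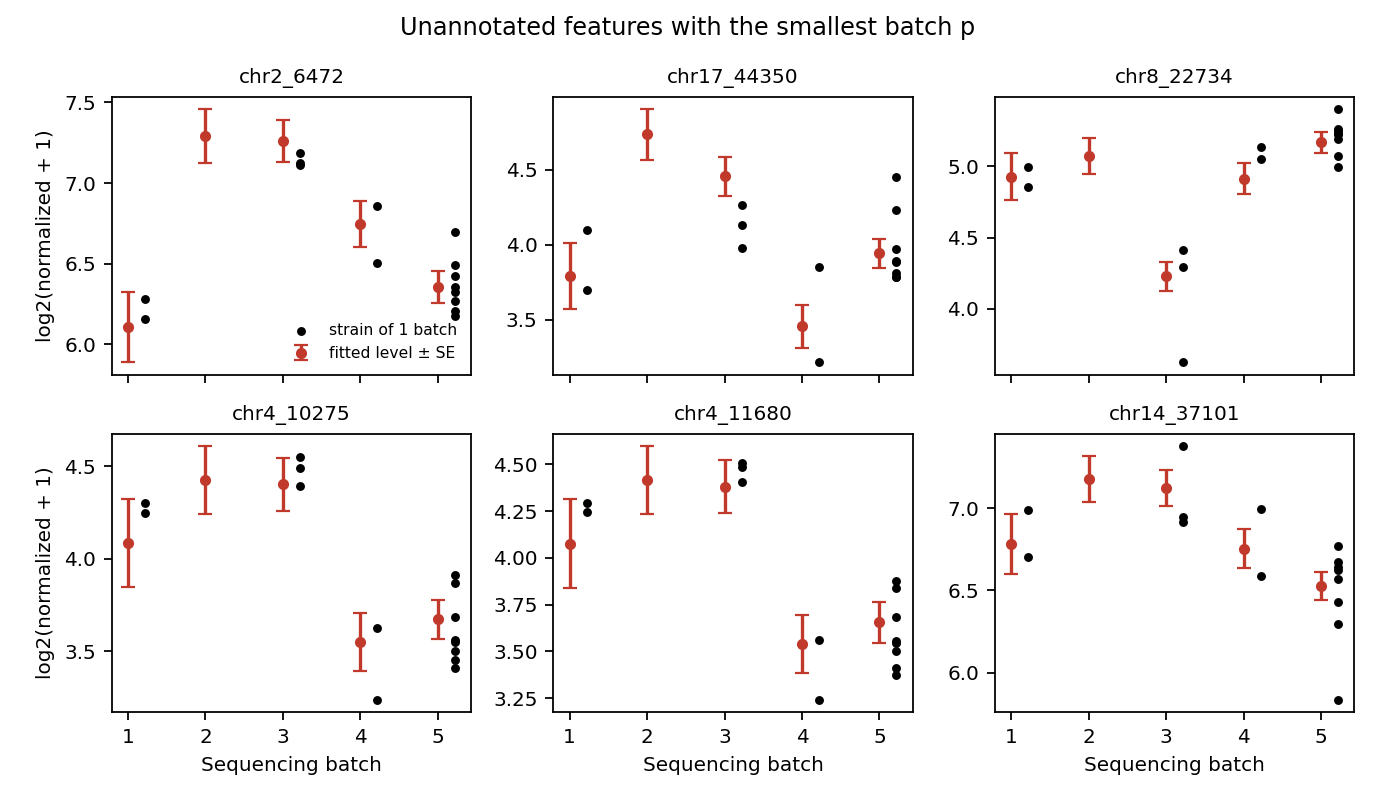
The 6 unannotated features with the smallest batch p: fitted level in each of 5 sequencing batches with its SE (red, log2(normalized + 1)) and the values of strains with all libraries in 1 batch (black points). Batch 2 has no such strain, so its fitted levels are extrapolated. By fitted level, chr8_22734 is lowest in batch 3, and chr2_6472 is highest in batches 2 and 3.

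The 8 unannotated features that did not pass were chr5_13806, chr8_22432, chr18_44847, chrX_48160, chr17_44186, chr17_43023, chr16_40520 and chr10_26214. The most abundant of all, chr5_13806, had a fitted range of 0.23 (adjusted p = 0.580), and chrX_48160 one of 0.13 (adjusted p = 0.959). The two-level chr10_26214 had a fitted range of 2.82 and did not pass (adjusted p = 0.225), while chr9_24385 did (range 3.32, adjusted p = 0.0135), though not without strain LXS72 (adjusted p = 0.0573).

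HIGH strains were then set against LOW strains, with batch shares as covariates. In limma 0 of 28 unannotated features passed, and 0 of the 647 features (0%). Without adjustment 1 unannotated feature and 26 of all features had a p under 0.05, and over all 881 features 4 unannotated features and 36 in all. The smallest p of an unannotated feature was that of chr16_40520. It had a median of 15.5 (9.83 to 22.3) in 8 HIGH strains and of 11.4 (8.99 to 17.3) in 10 LOW strains, overlapping, with a difference of 0.28 ± 0.13 (log2, SE; adjusted p = 0.981 in limma). Feature chr4_11680 had a median of 23.3 (17.7 to 30.9) in HIGH strains and of 20.1 (13.3 to 22.9) in LOW strains, with a difference of 0.29 ± 0.17 (adjusted p = 0.981), and its near-identical partner chr4_10275 differed by 0.28 ± 0.16. Feature chr10_26214 had a median of 13.4 in HIGH strains and 1.24 in LOW strains, both groups spanning both levels, with a difference of 1.26 ± 0.77 (adjusted p = 0.981).

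The last comparison was of the unannotated features with each other. Of 378 pairs of unannotated features with a mean of at least 10, 123 passed a two-sided permutation test of Pearson's r (32.5%; 73 positive and 50 negative), against 40.3% of the 17710 pairs of an unannotated feature with any feature in the same family of tests. Over all 86 features, 881 of 3655 pairs passed (24.1%), against a background of 33.4%. After removal of batch shares, 30 of the 378 pairs passed (7.94%), against a background of 12.9%. The number of pairs that passed was thus lower without batch, among unannotated features and in the family as a whole.

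**Figure D5:**
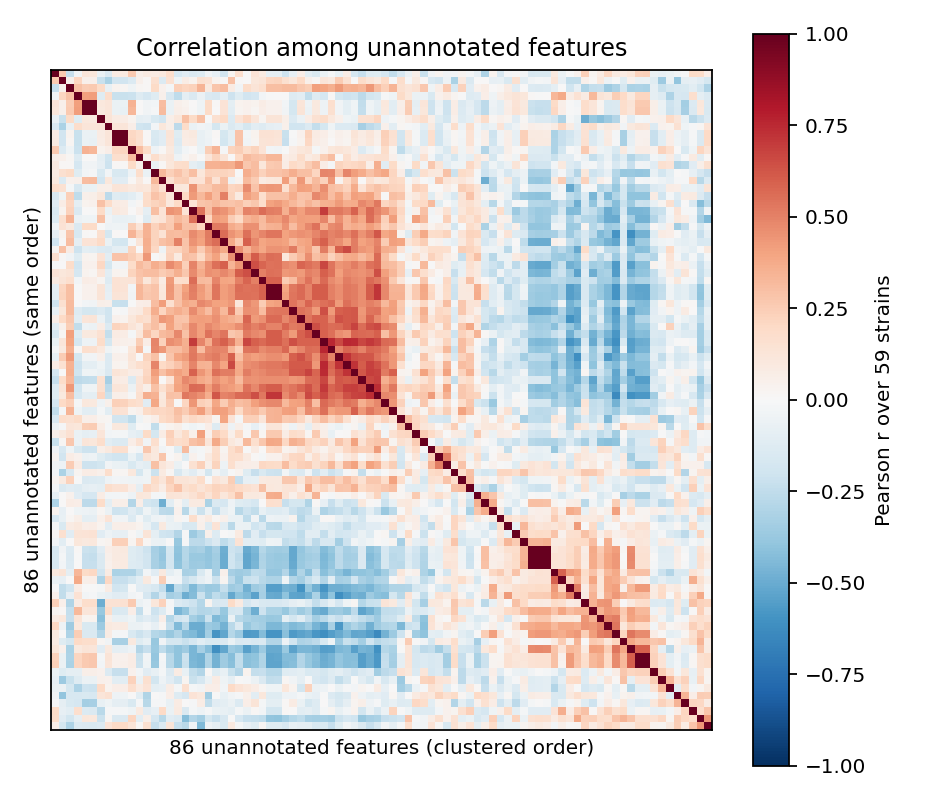
Pearson's r over 59 strains between all 86 unannotated features, in the order of an average-linkage clustering, red for positive and blue for negative. Small dark blocks on the diagonal are near-identical features, and outside these blocks the highest r is 0.758.

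A few unannotated features were near-copies of each other. With r above 0.99, 11 unannotated features fell in 5 groups, so the 86 features held 80 distinct patterns, and the next highest r was 0.758. Feature chr13_36269 (mean 11.6) and chr11_29278 (mean 11.5) differed by at most 0.593 in any strain, with a ratio of 0.998 to 1.06. Feature chr17_44186 (16.8) and chr17_43023 (16.7) had ratios of 0.997 to 1.03, chr4_11680 (15.5) and chr4_10275 (15.6) of 0.943 to 1.01, and chr8_22370 (3.93) and chr8_21109 (3.95) of 0.866 to 1.01. The group of chr3_8717 (8.53), chr13_36431 (8.50) and chr7_20327 (8.41) had ratios of 0.851 to 1.17. No strain had exactly equal values in any of these pairs.

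In 3 of the 5 groups the identifiers name a single chromosome, and in the other 2 they name different ones. A further unannotated feature, chr9_24825 (mean 31.9, 11.6 to 65.9), was near-identical to 2 named miRNAs, miR-669d-5p (mean 31.5, ratio 0.993 to 1.06) and miR-669l-5p (mean 31.5, ratio 0.921 to 1.08), members of a large repeated miRNA cluster. In all, 12 unannotated features (14.0%) and 25 named miRNAs (3.14%) had a partner above 0.99. Whether the members of such a group share reads was not tested.

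For named miRNAs, near-identical values could be set beside the sequences. Bases changed, added or missing were all counted as differences. Of the 5 near-identical named pairs with a mature sequence for both, 4 differ by at most 2 bases. They are let-7a-1-3p and let-7c-2-3p (0), miR-103-3p and miR-107-3p (1), miR-299a-5p and miR-299b-5p (1), and miR-101a-3p and miR-101c (2, both at the ends). The pair printed above of miR-299a-3p and miR-299b-3p differs by 4 bases, with lengths of 22 and 18. The shorter sequence is the start of the longer one, with no base changed. The reverse held less often: 42 named pairs differ by at most 2 bases, 4 of them had r above 0.99, and their median r was 0.711. The sequences of the unannotated features are not analysed here.

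Pairs on the same chromosome were set beside the others. Leaving out near-identical pairs, the median absolute r was 0.151 over 230 pairs on the same chromosome and 0.163 over 3418 pairs on different ones, and an absolute r of at least 0.5 was reached by 22 of the first (9.57%) and 201 of the second (5.88%). In residuals of batch shares the counts were 3 and 5. These pairs share strains and batches, and no test was made of the difference.

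Outside the near-copies, the closest partner of an abundant unannotated feature was a named miRNA. Feature chr2_6472 followed miR-690 (mean 44.3, 15.3 to 154.6), with r = 0.92 and rho = 0.90 over 59 strains (permutation p = 1e-05, the smallest that 100000 permutations give, adjusted p = 0.000107 for r and 0.000109 for rho over 72025 pairs). Without the 2 strains farthest from the median r was 0.90, in residuals of batch shares 0.88, and within the 8 strains of batch 5 it was 0.85. Its second partner, miR-3099-3p, had r = 0.87 over all strains, 0.78 in residuals and -0.0033 within the 8 strains of batch 5, so that relation was not seen within the batch. The unannotated pair with the highest r outside near-copies was chr2_6472 with chr17_42531 (r = 0.76, rho = 0.67, 0.63 in residuals, 0.60 within batch 5, same adjusted p values).

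The 20 pairs given here join an abundant feature, or one ranked high for its two-level share, to the 2 named miRNAs with the largest absolute r. All passed the permutation test, with adjusted p-values up to 0.00242 for r and 0.00385 for rho and absolute rho of 0.42 to 0.90. Since the partners were picked by that same r on the same values, passing gives no further support. Of all 72025 pairs tested for r, 33.4% passed. Leaving out the 2 strains farthest from the median moved r by at most 0.045. All 20 kept their sign in residuals (adjusted p up to 0.0367), and 13 did within the 8 strains of batch 5, while the other batches held too few strains of their own for a value. Relations that did not keep their sign within batch 5 are named with that value.

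Other abundant features had weaker partners. Feature chr4_10452 was closest to miR-1843b-5p (r = 0.73, rho = 0.67, adjusted p = 0.000107, 0.66 in residuals, 0.29 within batch 5) and then to miR-1843a-5p (r = 0.67, 0.56 in residuals). Feature chr14_37101 was closest to miR-667-5p (r = 0.78, 0.62 in residuals, 0.88 within batch 5) and miR-28a-5p (r = 0.77, 0.61 and 0.87). Feature chr17_42531 followed miR-137-5p (r = 0.82, 0.76 in residuals), an arm of the neuronal miR-137 hairpin, but within batch 5 r was -0.76, the opposite sign. Its second partner was miR-760-3p (r = 0.80, 0.76 in residuals, -0.08 within batch 5). Feature chr19_46276 followed miR-3473b (r = 0.71, 0.60 in residuals, 0.22 within batch 5) and miR-690 (r = 0.70). The most abundant, chr5_13806, had no partner above 0.5, and its closest were miR-708-3p (r = 0.47, -0.61 within batch 5) and miR-410-3p (r = 0.45, 0.02 within batch 5).

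Features ranked high for their two-level share had partners too. Of those with a partner given here, only chr9_24385 (share 0.84) reached the cut of 0.8. The shares of chr4_11680, chr4_10275, chr2_6472 and chr8_22734 were 0.78, 0.78, 0.73 and 0.70. Feature chr8_22734 followed miR-9-5p, a miRNA of neural cells (r = 0.81, 0.66 in residuals, 0.33 within batch 5), and miR-341-3p (r = 0.79, 0.50 in residuals). The near-copies chr4_11680 and chr4_10275 ran against miR-125b-2-3p (both r = -0.77, -0.55 and -0.56 in residuals, 0.44 and 0.46 within batch 5), and next to it came miR-148b-5p for chr4_11680 (r = -0.76, -0.02 within batch 5) and let-7e-3p for chr4_10275 (r = 0.76, 0.08 within batch 5). Feature chr9_24385 had only moderate partners, miR-6922-5p (r = 0.53, 0.54 in residuals, 0.50 within batch 5) and miR-350-3p (r = -0.52, -0.39 in residuals, 0.12 within batch 5). No pooled r is given for chr10_26214, whose levels stand 2.37 apart on the log2 scale, while those of chr9_24385 stand 0.24 apart.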

How the data were processed

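Small RNA was sequenced from TruSeq Small RNA libraries size-selected at 20 to 35 bp, per the labels' protocols. The authors deposited 1 normalized signal per feature and strain, with column sums of 12164300 to 15093700. They also deposited 1 variance-stabilized value for each, on a log2 scale, which near its floor does not keep the order of the normalized values. The sources used here do not say how libraries were combined or name an aligner or build. The depth behind each value is therefore unknown, and no interval or limit of detection is given. The mRNA table was not used.

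Strains and sequencing batches were taken from the labels. Fits were made on log2(normalized + 1) with limma 3.58.1 (R 4.3.3, trend and robust) over 59 strains, with batch shares (the part of a strain's libraries that each batch held) as covariates, for 647 features with a mean of at least 10, and p-values were adjusted by Benjamini-Hochberg over all features tested, with a threshold of 0.05. A fold on this scale understates changes of low features. Correlations were tested with 100000 permutations (numpy 2.4.6, Python 3.11.15), and adjusted p-values of single pairs come from all 72025 pairs. On simulated data for the 647 features, effects placed in batch 5 were recovered in 78% of cases at 0.5 (log2) and in 90% at 1. For HIGH minus LOW these were 68% and 96%. Effects of each size were placed in 50 features drawn from all 647, with normally distributed values. The rates are thus not those of a single changed feature or of a two-level one. Effects in the other batches were not simulated.

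Named unannotated features were the 6 most abundant, the 6 largest two-level shares among means of at least 10, and the 6 smallest batch p. Also named were the 3 smallest HIGH minus LOW p and the 5 most often at the floor. The 6 largest SD without batch and those of the 8 strongest pairs completed the list. The 2 closest named miRNAs were taken for the 6 most abundant and the 6 with the largest two-level shares, not all of them two-level. Other features were named after their values were seen. The members and lists were chosen with earlier results of these data known. Chromosomes were matched by miRNA name in RefSeq for 681 of the 795 named miRNAs, 17 of them on several chromosomes. Alternatives were other pseudocounts, filters, tables, covariates, thresholds and each strain left out.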

Additional observations from a re-analysis of the deposited data

Results flagged for a closer look

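In the tag groups of 8 HIGH, 9 MED and 10 LOW strains, the 26 unannotated features named by the rule gave 78 groups of values, and in 3 of them the highest strain stood apart from the others by Dixon's ratio on the log2 scale, where chance gives about 1 in 20 groups. For chr4_9669, strain LXS93 was at 1.49 among the 8 HIGH strains, and the next strain was at 0.456. All 8 lie in the low level of this feature, where normalized values up to 1.46 can sit on the floor, so no difference in level can be read from it. For the near-copies chr17_44186 and chr17_43023, strain LXS49 was at 28.8 in both among the 10 LOW strains, with the next strains at 18.3 and 18.2, and since these features are near-identical they count as 1 case.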

How the results depend on the processing

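The count of 20 unannotated features that passed the batch test was 53 with no filter on low values and 3 of 4 with a mean of at least 100. It was 18 to 20 under the other settings and 19 to 20 with each strain left out. HIGH minus LOW gave 0 unannotated features under all 7 other settings and with each of 18 strains left out. The count of 2 two-level unannotated features was 5 at a share of 0.7, 1 at 0.9, 6 with no filter and 6 with no filter in residuals, and 2 with each strain left out; the alternative of batch 5 strains alone has 8 strains, too few for 5 per level, and gave no value. At a share of 0.7 the deposited values gave 16 unannotated features (18.6%) and 335 named miRNAs (42.1%). The 10 unannotated features at the floor became 2 with a value of 0 and 26 with a value under 1. The 123 unannotated pairs became 63 in the variance-stabilized table, 30 in residuals, 3 of 6 with a mean of at least 100 and 881 of 3655 with no filter. Among single features, chr17_42531 did not pass the batch test in the variance-stabilized table (adjusted p = 0.206), and chr9_24385 did not without LXS72 (adjusted p = 0.0573); the cause was not tested. The leave-one-out of two-level counts, the pair test with no filter, the two-level count with no filter in residuals and the batch test with near-copies counted once (18 of 25) were chosen after seeing the data. No paired analysis was possible because the tables hold 1 value per strain, and strains carry no replicate number.

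The depth behind each strain value is unknown, so what it limits could not be measured; 58 of 86 unannotated features had a mean under 10.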
